A study of Mus musculus with 6 samples.

Results

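The 4 mouse Hox clusters were examined for DNA methylation in colonic mucosa of Tlr2 knockout and wild-type mice. The members are the probes of a methylation array that lie in 4 windows of the mm9 genome build. The windows are chr6:52050000-52300000 for HoxA, chr11:95950000-96300000 for HoxB, chr15:102700000-102900000 for HoxC and chr2:74400000-74650000 for HoxD. They hold 313 of the 103507 positioned probes of the array, with 103 in HoxA, 74 in HoxB, 50 in HoxC and 86 in HoxD. Position alone decided which probes belong, but the windows were chosen with earlier results of these data known.

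All mice were C57BL/6 at 90 postnatal days, and the tissue was mucosa scraped from the colon. The knockout lacks Tlr2, a surface receptor for bacterial lipoproteins. Methylation was measured on 2 two-colour arrays, each with 1 knockout sample in Cy5 against 1 wild-type sample in Cy3, here called pair 1 and pair 4 after the sample codes. Transcripts were measured on 4 two-colour arrays of pairs 1, 2, 4 and 5, with the knockout in Cy3 in pairs 1 and 2 and in Cy5 in pairs 4 and 5. The series describes the comparisons as independent, but no label says that each code is 1 animal, so p-values measure the spread between these samples only. Sex and litter are not given in the labels used here. Because the dyes were not swapped on the methylation arrays, dye and genotype cannot be told apart there.

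Hox genes encode homeodomain transcription factors that give cells their position along the body axis. They sit in 4 clusters in an order that matches where they act, and in the gut this order persists in adult tissue. The clusters are rich in CpG islands, which are mostly free of methylation, and Polycomb and Trithorax complexes keep their genes silent or active. DNA methylation at CpG sites is added by DNA methyltransferases and can be removed through oxidation by TET enzymes.

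The assay reads methylation at the SmaI site, CCCGGG. SmaI cuts the site only when its CpG is unmethylated, and XmaI then cuts the sites that are left, whose ends carry the adaptors for amplification. A stronger signal therefore stands for an interval whose SmaI sites were more methylated. A few Hox gene starts with the site just upstream are shown to make the readout concrete, from RefSeq (GRCm38.p6), 5′ to 3′ on the gene's strand, with the site in capitals.

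Hoxa6, chromosome 6, minus strand, site beginning 131 bases before the gene start: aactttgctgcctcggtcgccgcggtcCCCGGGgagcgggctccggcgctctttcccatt
Hoxb1, chromosome 11, plus strand, site beginning 34 bases before the gene start: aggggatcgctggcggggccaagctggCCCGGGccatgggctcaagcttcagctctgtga
Hoxd11, chromosome 2, plus strand, site beginning 153 bases before the gene start: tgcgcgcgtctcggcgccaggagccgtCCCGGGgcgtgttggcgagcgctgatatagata

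Hoxa6, Hoxb1 and Hoxd11 are homeodomain factors from the middle, the 3′ end and the posterior side of their clusters, respectively. Windows from 250 bases before to 50 after the gene start were available for 22 Hox genes (24 windows). CCCGGG, which reads the same on both strands, was in 8 of the 24 (33.3%), against 4436 of 32851 windows of all genes (13.5%). By cluster it was in 3 of 10 HoxA windows, 1 of 3 HoxB windows, 0 of 1 HoxC window and 4 of 10 HoxD windows. The probes were not placed on these windows, because the array uses mm9 and no mm9 sequence or annotation was used here. For the same reason no interval below is assigned to a gene. With rising coordinate the genes run towards Hoxa13 and Evx1 in HoxA, from Hoxb13 to Hoxb1 in HoxB, from Hoxc13 to Hoxc4 in HoxC and from Evx2 and Hoxd13 to Hoxd1 in HoxD.

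The Hox clusters gave lower knockout than wild-type signal on the pair 1 array in all 4 clusters, while on the pair 4 array the cluster medians were closer to 0. Values are log2 ratios of knockout over wild-type processed signal, centred on the median of all positioned probes of that array, so 0 is the array's middle and a ratio below 0 stands for less methylation signal in the knockout. In HoxA the median over probes was −0.66 in pair 1 and 0.02 in pair 4. In HoxB it was −0.58 and −0.07, and in HoxD −0.68 and −0.14, in the same order. HoxC had the lowest median on both arrays, −0.90 in pair 1 and −0.23 in pair 4. Over the 313 probes the median was −0.70 in pair 1 (quartiles −0.98 and −0.40) and −0.11 in pair 4 (quartiles −0.39 and 0.13).

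**Figure D1:**
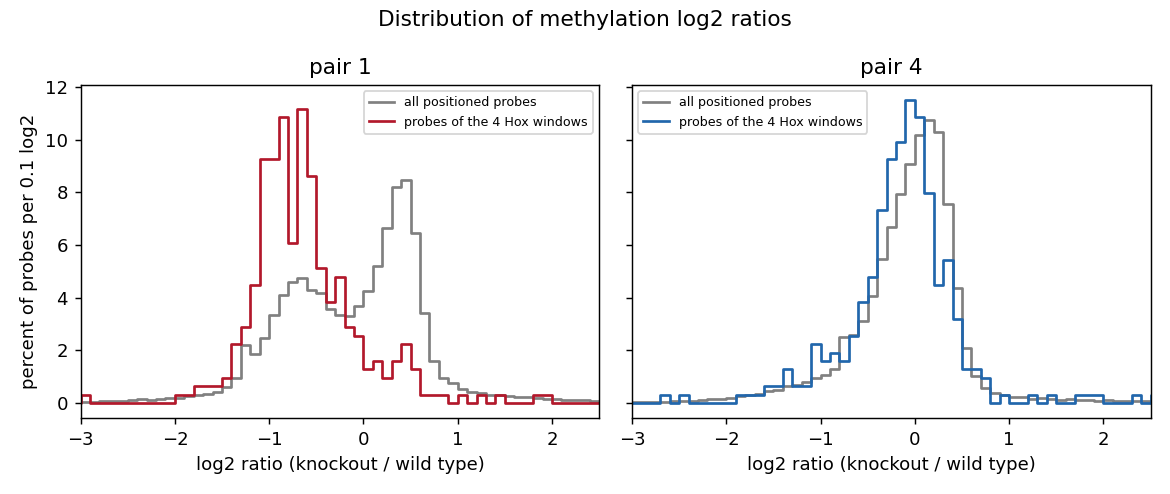
Share of probes (percent per 0.1 log2, y axis) by log2 ratio of knockout over wild type (x axis), for all 103507 positioned probes (grey) and the 313 Hox probes (coloured), on the pair 1 array (left) and the pair 4 array (right). In pair 1 the whole array has peaks below and above 0 and the Hox probes lie mostly under the lower one, with a median of −0.70; in pair 4 both curves have 1 peak near 0.

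The pair 1 array was itself broad, with quartiles of −0.66 and 0.41 over all its probes, against −0.32 and 0.24 in pair 4. Of the Hox probes, 164 (52.4%) were over 1.6-fold lower in pair 1, against 24.0% of all probes. In pair 4, 41 (13.1%) were, against 11.7% of all probes. By cluster the pair 4 share was 3.88% in HoxA, 20.3% in HoxB, 18% in HoxC and 15.1% in HoxD. In pair 1 it was above the array's share in all 4 clusters, from 43.2% in HoxB to 74% in HoxC, while in pair 4 HoxA lay below the array and the other clusters above it. In pair 1, 277 of the 313 (88.5%) were below 0, and in pair 4, 194 (62.0%), where the array's own share is 50% by the centring.

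The clusters differed in the share of probes below 0 on both arrays. In HoxC, 45 of 50 probes (90%) were below 0 on both arrays, and in HoxD 56 of 86 (65.1%). In HoxB, 42 of 74 probes (56.8%) were below 0 on both, and in HoxA 43 of 103 (41.7%). Over all positioned probes this share was 30.8%. Probes above 0 on both arrays numbered 21 in HoxA, 5 in HoxB, 2 in HoxC and 0 in HoxD. Neighbouring probes report on the same amplified interval, 34 of the 313 share a start with another probe and 62 overlap one, so these counts are not counts of independent sites. No test of the clusters against the rest of the array was made, as the samples number 2 per genotype.

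The probe density of the Hox clusters is high, and density moved with the ratio in pair 1. Hox probes had a median of 15 probes within 10 kb on either side, themselves included, against 8 over the array. Across the array the pair 1 median fell from 0.16 at 1 to 4 probes within 10 kb to −0.53 at 30 to 59, while in pair 4 it went from 0.0030 to −0.04. At 1 to 4 probes the 41 Hox probes had a pair 1 median of −0.58, and at 20 to 29 probes the 93 Hox probes had −0.84, against −0.23 for the array there. Within each density class that held Hox probes, their pair 1 median was thus the lower. The part of density in the remaining difference was not tested.

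The wild-type channels accounted for most of the gap between the pairs. This was read from 293 Hox probes well above background in both channels of both arrays, each channel scaled to its own median over positioned probes. The wild-type signal of pair 1 exceeded that of pair 4 by a median of 0.42 on the log2 scale (quartiles 0.14 and 0.67), and it was higher at 229 of 293 probes (78.2%). Over the array the same median was −0.12 (quartiles −0.42 and 0.40), with 42.8% of probes higher in pair 1. The knockout signals of the pairs differed by −0.03 over the Hox probes (quartiles −0.17 and 0.10), with 42.3% higher in pair 1. Over the array the knockout quartiles were −0.15 and 0.14, so the wider spread of the wild-type channel was not particular to the Hox probes.

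**Figure D2:**
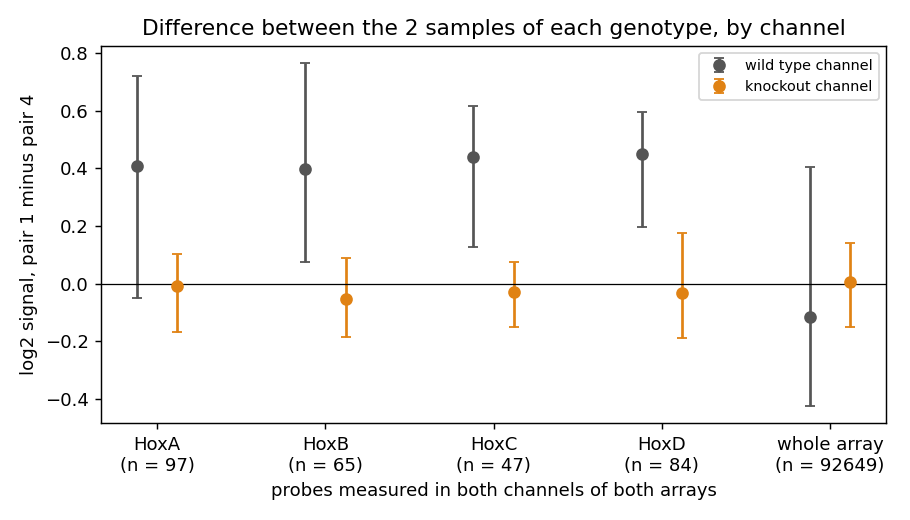
Median difference in log2 signal, pair 1 minus pair 4 (y axis), in the wild-type (grey) and knockout (orange) channel, for the probes of each Hox cluster and of the whole array (x axis, with n); bars run from the lower to the upper quartile over probes. The wild-type medians are 0.41, 0.40, 0.44 and 0.45 in HoxA to HoxD and −0.12 over the array, and the knockout medians lie between −0.05 and 0.0071.

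All 4 clusters showed this to a like degree, with wild-type medians of 0.41, 0.40, 0.44 and 0.45 and knockout medians of −0.0072, −0.05, −0.03 and −0.03 from HoxA to HoxD. By interval, the wild-type sample of pair 1 was the highest of the 4 samples in 50 of 72 Hox intervals, against 26.7% of all intervals, from 12 of 20 in HoxA to 18 of 22 in HoxD. Both wild-type samples were above both knockout samples in 28 of the 72, against 13.9% of all intervals, and in HoxC in 7 of 10. Both knockout samples were above both wild-type samples in 6 of the 72, against 36.1%. The Hox DNA of the wild-type sample of pair 1 therefore gave stronger signal, relative to its own array channel, than that of pair 4. The comparison is across arrays within a dye, and whether hybridisation, amplification or the tissue differed between the samples was not tested.

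Along HoxA the ratio varied with position. Probes between chr6:52050000 and 52100000 had medians of 0.36 in pair 1 and 0.35 in pair 4 (5 probes). From 52100000 to 52150000 they were 0.07 and −0.18 (32 probes), and from 52150000 to 52200000 −0.73 and −0.18 (42 probes). The bin from 52200000 to 52250000 had −1.02 in pair 1 and 0.10 in pair 4 (12 probes). The last bin, to 52300000, had −0.39 and 0.39 (12 probes). The pairs were thus alike at the start of the window and lay furthest apart in the bin from 52200000.

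In HoxB the 4 probes from chr11:96000000 to 96050000 were high on both arrays, with medians of 0.45 and 0.42. The 4 bins from 96050000 to 96250000 had pair 1 medians of −0.64, −0.82, −0.53 and −0.61. Their pair 4 medians were −0.07, 0.05, −0.22 and −0.48, so the bin on the Hoxb1 side was the lowest of these in pair 4. In HoxC the 16 probes from chr15:102750000 to 102800000 and the 30 from there to 102850000 had pair 1 medians of −0.92 and −0.93. Their pair 4 medians were −0.18 and −0.23. The 4 probes from 102850000 to 102900000 had −0.45 in pair 1 and −0.54 in pair 4. In HoxD the 35 probes from chr2:74500000 to 74550000 had −0.84 and −0.11, and the 24 from there to 74600000 had −0.27 and −0.33. Those last bin medians were close, but intervals inside that bin differed between the pairs in opposite ways. They were −0.67 and −0.13 at chr2:74559883-74560131 and −0.08 and −1.19 at chr2:74565073-74566423.

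**Figure D3:**
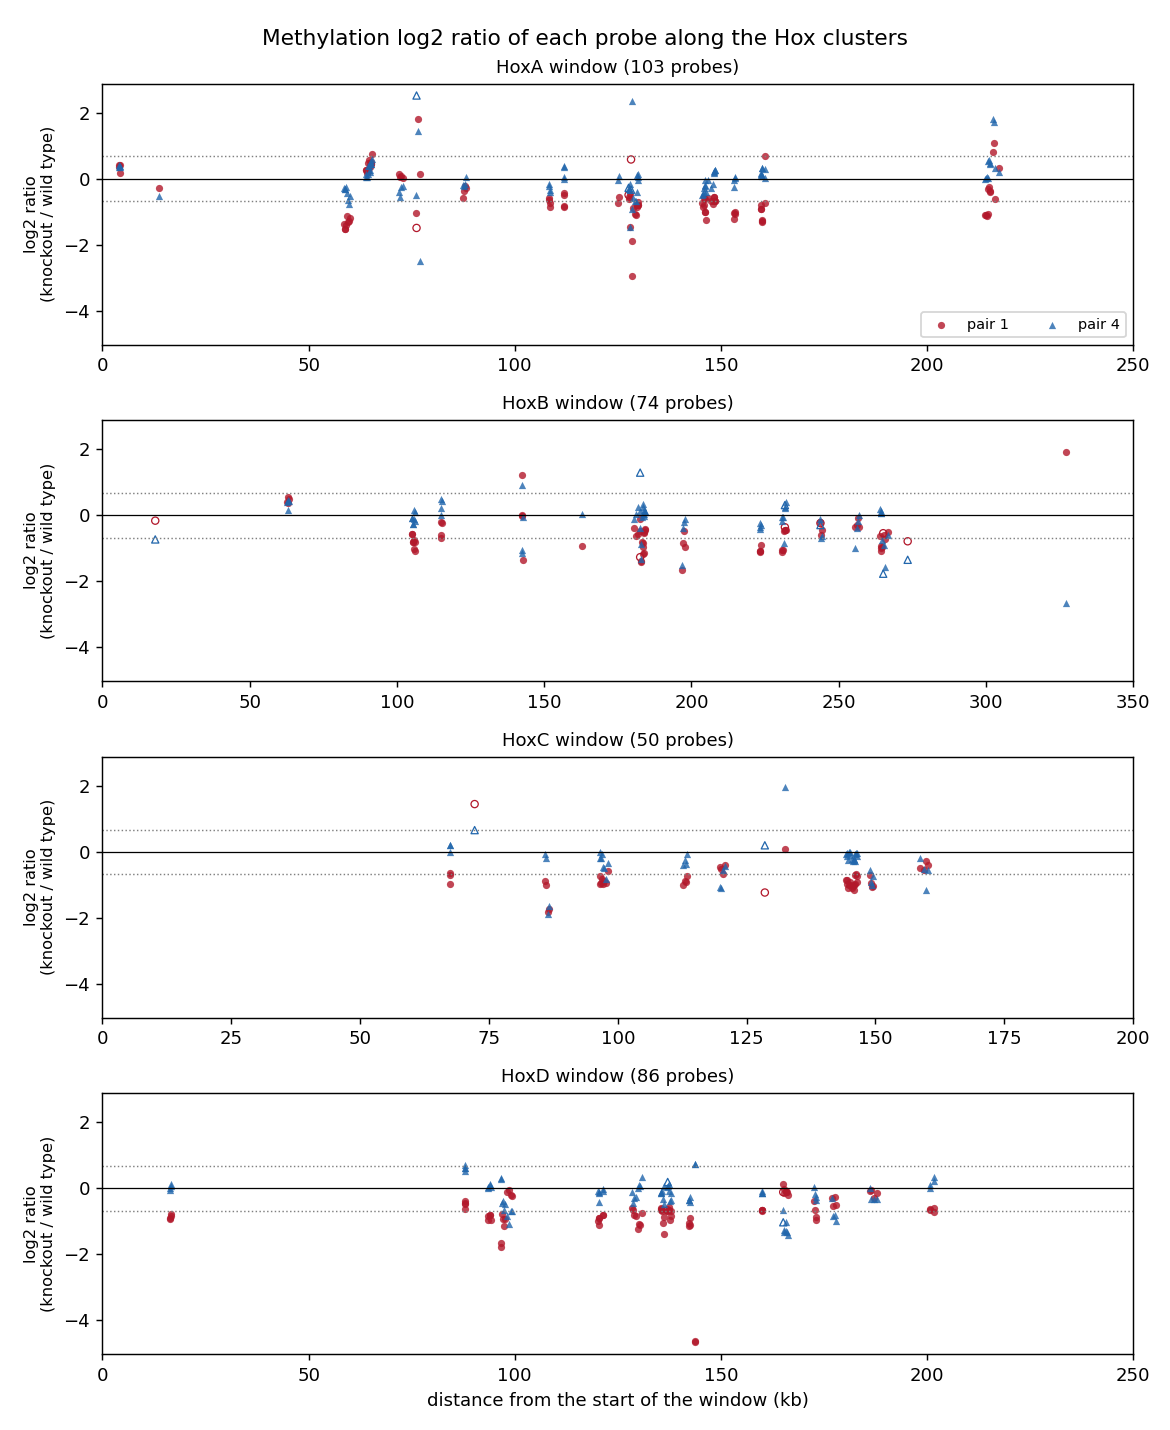
Log2 ratio of knockout over wild type (y axis) of each of the 313 Hox probes against its distance from the start of its window (x axis, kb), 1 panel per cluster, with red circles for pair 1 and blue triangles for pair 4; open symbols were left out of intervals, and dotted lines mark 1.6-fold. Pair 1 lies below 0 over most of each cluster (277 of 313 probes), while the first probes of HoxA lie above 0 on both arrays.

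For intervals, probes were joined and averaged where neighbouring starts were at most 500 bp apart, after 8 probes not well above background in any channel of an array and 5 marked as outliers were set aside. The other 300 formed 72 intervals, 20 each in HoxA and HoxB, 10 in HoxC and 22 in HoxD, of 29875 on the array. Of the 72, 45 (62.5%) were lower in the knockout on both arrays, where 27.7% of all intervals were, and 6 (8.33%) were higher on both, where 32.5% were. The remaining 21 had opposite signs, 18 of them lower in pair 1 and higher in pair 4. The 6 that were higher on both were 4 in HoxA, 1 in HoxB, 1 in HoxC and 0 in HoxD.

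The submitters kept an interval when its mean ratio passed 1.6-fold the same way on both arrays. Here the rule was applied to mean log2 ratios of the joined intervals, which are not the intervals that the submitters listed. By that rule 4 of the 72 Hox intervals were lower, 2 in HoxB and 2 in HoxC, against 1.63% of all intervals, and 0 were higher, against 1.99%. The whole array held 596 higher and 487 lower intervals, a split that became 109 higher and 1887 lower with normexp background correction and 744 and 308 with loess. In the Hox windows normexp gave 9 of 72 lower, beside 1887 of 29875 over the array. Loess gave 1 of 72, beside 308 of 29875. With both, 0 Hox intervals were higher, and the count of lower ones was not stable. On the pair 1 array alone 35 Hox intervals were past 1.6-fold lower, against 17.7% of all intervals, and on the pair 4 array alone 11, against 12.8%. Past 1.6-fold higher were 1 in pair 1, against 10.9%, and 3 in pair 4, against 4.3%.

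limma on the means of both arrays, with Benjamini-Hochberg adjustment over 29875 intervals, called 0 Hox intervals and 0 of all intervals (0% in each direction). The smallest adjusted p was 0.708 in the Hox windows and 0.383 on the array. Unadjusted limma p-values were under 0.05 for 4 of the 72 Hox intervals (5.56%) and for 4.81% of all intervals, which is near the same share. These 4 are the intervals of the submitters' rule. With normexp limma called 4 Hox intervals lower, beside 18 higher and 610 lower over the array. With 1 difference between arrays per interval, a p that misses the threshold does not show equal methylation.

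**Figure D4:**
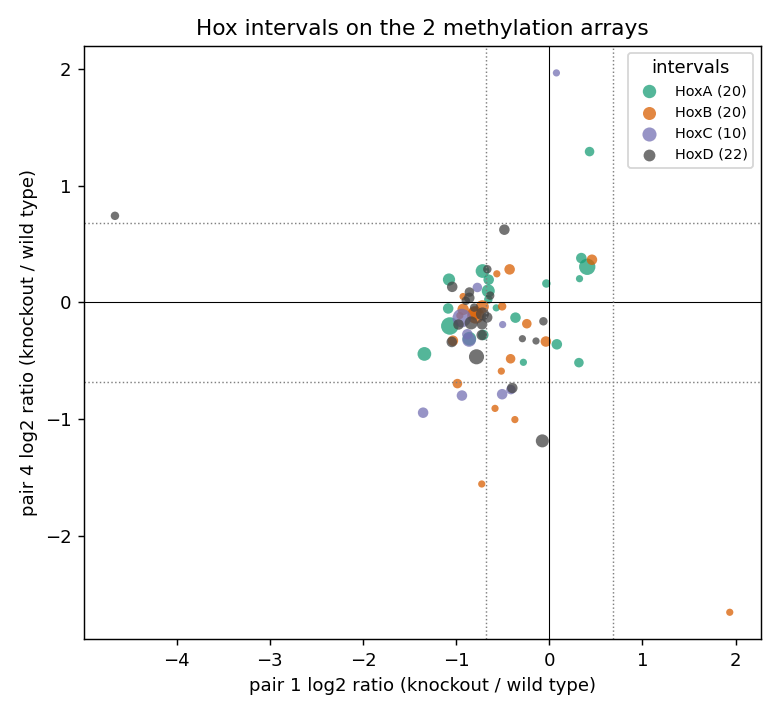
Mean log2 ratio of knockout over wild type of each of the 72 Hox intervals on the pair 1 array (x axis) and the pair 4 array (y axis), coloured by cluster, with point area rising with the number of probes and dotted lines at 1.6-fold. Most points (45) lie in the lower left part, 4 of them past both lower lines, and 1 HoxD interval stands far to the left at −4.66 with 0.74 in pair 4.

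The lowest interval of HoxC lay at chr15:102785943-102786663 and held 4 probes. Its mean log2 ratio was −1.35 in pair 1 and −0.94 in pair 4, a mean of −1.15 ± 0.29 (SD, n = 2). The probes did not move alike. The probe starting at 102786413 had −1.82 and −1.88 and the one at 102786619 had −1.72 and −1.64, while that at 102785943 had −0.88 and −0.07. In pair 4 the probe at 102786152 had −0.19. The lower pair of ratios thus came from neighbouring probes and was repeated on both arrays. These were also the brighter probes of the interval, with wild-type signals of 1265 and 2667 in pair 1 against 158 and 180 for the others. All lay below the median of that channel, 10150. Scaled to the channel medians, the mean log2 wild-type signal of the interval was −4.19 in pair 1 and −4.38 in pair 4.

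The second HoxC interval past the rule lay at chr15:102848960-102849586. Its 4 probes had a mean log2 ratio of −0.94 in pair 1 and −0.80 in pair 4 (−0.87 ± 0.10, SD, n = 2). All 4 were lower on both arrays, from −1.07 to −0.70 in pair 1 and from −0.99 to −0.54 in pair 4. The wild-type signals, scaled to their channel medians, were −0.26 and −0.34, and the knockout signals −0.98 and −1.05. The wild-type samples lay together, and both were above both knockout samples. Its large HoxC neighbour at chr15:102844281-102846451, with 16 probes, had −0.94 in pair 1 and −0.13 in pair 4.

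In HoxB, the interval at chr11:96146862-96147406 had a mean log2 ratio of −0.99 in pair 1 and −0.70 in pair 4 over 3 probes. The first probe carried most of it, with −1.66 and −1.52, while the last had −0.46 and −0.20. The interval at chr11:96215828-96215875 was a single probe, with −0.73 and −1.56. It was the only interval past the rule that was lower in pair 4 than in pair 1. Both HoxB intervals were dim, with scaled wild-type signals of −3.53 and −3.94 at the first and −3.47 and −2.18 at the second. Limma p-values of the 4 intervals past the rule ran from 0.0141 to 0.0342 unadjusted and were 0.708 after adjustment.

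The named intervals above 0 on both arrays mostly had small ratios. In HoxA the 4 probes at chr6:52053981-52054291 gave 0.34 in pair 1 and 0.38 in pair 4, a mean of 0.36 ± 0.03 (SD, n = 2), or 1.29-fold higher in the knockout. Their scaled wild-type signals were 1.52 and 1.59, and their knockout signals 2.08 and 2.06. In HoxB the 4 probes at chr11:96012825-96013332 gave 0.46 and 0.37. The 12 probes at chr6:52113853-52115527, chosen after their values were seen, gave 0.41 and 0.31. These ratios sit near the upper peak of the pair 1 array, where many probes outside the clusters also lie. The HoxA interval at chr6:52266017-52266558 had a higher mean, 0.43 and 1.29, but its 3 probes disagreed, with −0.61 and 0.33 at the last one.

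Other HoxA intervals were lower in pair 1 than in pair 4. The 8 probes at chr6:52108538-52110142 had −1.34 in pair 1 and −0.44 in pair 4, and every one was below 0 on both arrays. The interval at chr6:52209728-52210130 had −1.08 and 0.20, and that at chr6:52203209-52203429 had −1.09 and −0.05. In these intervals the wild-type signal of pair 1 was the one that stood above the other 3 samples. For chr6:52108538-52110142 the scaled wild-type signal was −0.26 in pair 1 and −1.19 in pair 4, and the knockout signals were −1.39 and −1.54. HoxB intervals at chr11:96173217-96173555 (−1.04 and −0.33) and chr11:96055230-96056119 (−0.80 and −0.09) and the HoxC interval at chr15:102767467-102767575 (−0.77 and 0.13) had the same shape, as did chr11:96214081-96214821 (−0.93 and −0.06).

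The interval with the largest gap between the pairs was in HoxD. At chr2:74543697-74543741, 2 probes printed at the same position gave −4.66 in pair 1 and 0.74 in pair 4. The wild-type signals were 4399 and 4686 in pair 1 against 42.3 and 49.5 in pair 4, and the knockout signals were 181 and 189 in pair 1 and at most 88.8 in pair 4. The wild-type sample of pair 1 was thus far above the other 3 samples, a gap of 4.75 on the scaled log2 scale from the wild type of pair 4. At chr2:74565073-74566423 the order was turned, with 7 probes at −0.08 in pair 1 and −1.19 in pair 4. There the knockout sample of pair 4 was the lowest, at 0.24, against 1.34 for its wild-type partner and 0.68 and 0.82 for pair 1. The HoxD intervals at chr2:74542268-74542618 (−1.05 and −0.34) and chr2:74529971-74530801 (−1.04 and 0.13) were low mainly in pair 1.

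**Figure D5:**
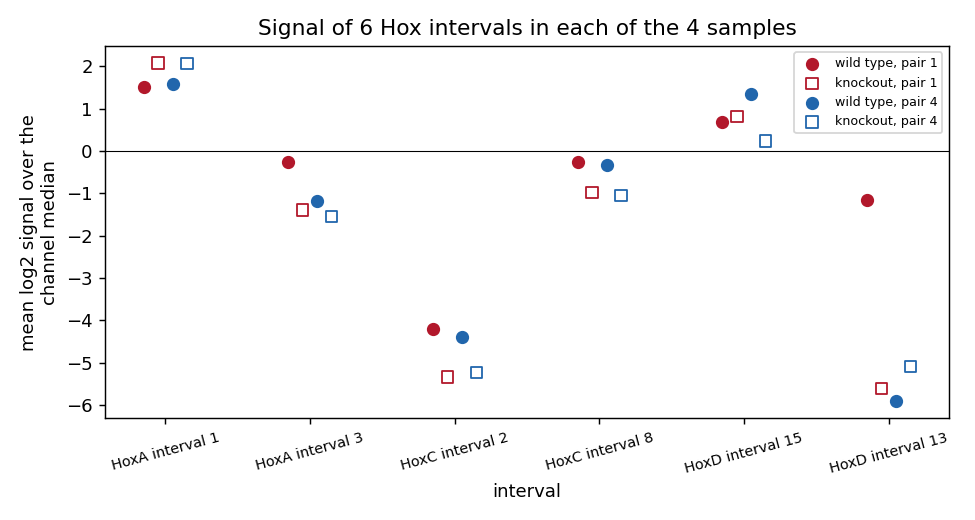
Mean log2 signal over the channel median (y axis) of 6 Hox intervals (x axis) in each of the 4 samples, with filled circles for wild type, open squares for knockout, red for pair 1 and blue for pair 4; intervals are numbered by position within their cluster. Both wild-type samples lie above both knockout samples in the 2 HoxC intervals and below them in HoxA interval 1, while 1 wild-type sample (pair 1) stands apart in HoxA interval 3 and HoxD interval 13.

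In 4 single-probe intervals a channel was not well above background on at least 1 array. The probe at chr11:96277066-96277125 had 1.94 in pair 1 and −2.66 in pair 4, with wild-type signal not well above background in pair 1. At chr15:102832404-102832463 the wild-type signal was not well above background on either array, so no fold is given. The single probes at chr6:52063616-52063674 (−0.28 and −0.51) and chr11:96216698-96216757 (−0.52 and −0.59) count among the 45 lower intervals, and their wild-type signal was not well above background in pair 1. Among the 57 intervals with at least 2 probes, the median SD between probes of an interval was 0.14 in pair 1 and 0.16 in pair 4, and 8 had an SD over 0.5 on at least 1 array.

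The authors' deposited table of methylation hits lists 246 lower and 141 higher intervals, of which 5 lower and 0 higher lie in the Hox windows. Its build is not named, and it was set beside the mm9 probes because 385 of its 387 intervals hold an array probe. The ratios in the authors' deposited table, for its arrays 1 and 2, were 0.325 and 0.348 at chr15:102785531-102786843 and 0.527 and 0.595 at chr15:102848936-102849612. Both HoxC intervals are those described above. At the first, the mean log2 ratio of the kept probes was −1.35 in pair 1 and −0.94 in pair 4. Summing the signals of its probes before taking the ratio gave −1.67 and −1.62. The authors' deposited table gives 0.416 and 0.580 at chr11:96132449-96133181 in HoxB. It gives 0.608 and 0.390 at chr11:96214636-96215883, which overlaps the single-probe HoxB interval. The means of the kept probes inside these HoxB intervals were −0.97 and −0.86, and −0.76 and −1.08, on the log2 scale. Summed signals gave −1.31 and −0.88, and −0.76 and −1.45. Joining over 500 bp had merged the first with its neighbours, whose medians within 2 kb were −0.56 in pair 1 and 0.11 in pair 4.

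The fifth deposited Hox hit was less settled. The authors' deposited table gives 0.368 and 0.437 for chr6:52177957-52178683 in HoxA. The mean of its 3 kept probes was −2.10 in pair 1 and −0.00043 in pair 4 on the log2 scale. The probe at chr6:52178046-52178094 had −1.46 on both arrays, with signals from 258 to 1286. The probe starting at 52178533 had −2.95 and 2.37, at wild-type signals of 79.8 and 5.89 and knockout signals of 10.7 and 32.4, and was above background in 1 channel of each array. Summing the signals of all 4 probes before taking the ratio, which weights bright probes, gave −1.49 and −1.29. The HoxA value in pair 4 therefore depends on how probes are averaged, and the joined interval around it, 14 probes at chr6:52177767-52179997, had −1.07 and −0.20.

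Expression of the Hox genes was read in the same pairs. RNA of bulk mucosa was measured, so fewer cells of a type and less RNA per cell cannot be told apart. Of the cluster genes, 11 HoxA, 9 HoxB and 9 HoxD genes were measured, and 6 HoxC genes on the array were not well enough above background to test. limma called 0 of the 29, and 0% of 14694 genes in either direction. Tlr2, the deleted gene, was not called either (limma adjusted p = 0.315), so 0 calls do not show equal expression. Unadjusted limma p-values were under 0.05 for 3 HoxA genes, 0 HoxB genes and 0 HoxD genes, and for 1185 of all genes (8.06%).

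The Hox genes named here were chosen for the largest difference between pairs 1 and 4, so their wide spread follows from the choice. Hoxd13, the most posterior gene of its cluster, had a log2 ratio of −4.76 in pair 1, 0.43 in pair 2, 2.15 in pair 4 and 0.58 in pair 5. Hoxa13, its HoxA counterpart, had −1.66, 0.79, 1.89 and 1.20, and Hoxb13 −3.03, −0.47, 1.14 and −1.04, in the same order. In each of these the knockout was lowest in pair 1 and highest in pair 4. Hoxa10, also on the posterior side of HoxA, had −1.30, 0.56, 1.28 and 0.91. The more anterior Hoxd4 had 3.09, −1.81, −1.82 and 0.27, and Hoxb5 2.39, −0.97, −2.24 and −0.04, with the opposite order of pairs 1 and 4.

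Of the 9 HoxB genes, 8 had a ratio above 0 in pair 1 and 1 in pair 4, where the HoxB median was −1.51. The HoxA medians were 0.04 in pair 1 and 0.47 in pair 4, and the HoxD medians −0.17 and −0.0032. The genes named were chosen for their difference between these pairs, which is a description. Lower methylation ratios in pair 1 therefore stood beside higher transcript ratios at some Hox genes and lower ones at others, and no test joined the readouts. The dyes of pairs 1 and 4 were opposite in expression. Over the markers of other cell types, the smooth muscle list (6 of 6 measured) had medians of −1.03 in pair 1 and −0.39 in pair 4. The enteric neuron and glia list (4 of 6 measured) had 0.86 and −0.04, and the adipocyte list (5 of 6) had −0.34 and 0.88. The B and plasma cell list (5 of 6) had 0.40 and −0.22, and the T and NK cell list (6 of 6) −0.20 and −0.81. The colonic epithelium list (14 of 15) had 0.22 and −0.31, with 9 members above 0 in pair 1 and 6 in pair 4. Its members did not move alike. Krt8, Krt19, Car1 and Tff3 all had −0.87 in pair 4, and Car1 and Tff3 both had 1.41 in pair 1. Krt8, Krt19, Krt20, Vil1 and Car1 all had 0.47 in pair 2. In pair 5, Krt8, Krt18, Krt19, Krt20, Car1 and Tff3 all had −0.61. Cdh1, Slc26a3 and Car4 went the other way, with −0.50, −0.71 and −0.90 in pair 1 and 0.98, 1.07 and 0.58 in pair 4. The epithelium medians and counts include these shared values, so they are not read as changes of separate genes. Why unlike genes shared a value, and the part of these cell types in the Hox ratios, were not tested. All 14 of the colonic epithelium markers on the array were well above background in all samples. The Tlr2 log2 ratio was between −5.50 and −4.20 in the 4 pairs, with a limma adjusted p of 0.315.

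Genes that act on the Hox clusters gave 0 calls in limma, in a fit that did not call Tlr2 either. Of 32 Polycomb and Trithorax genes, 5 had an unadjusted limma p under 0.05, where 8.06% of all genes did. Jarid2, a PRC2 partner, had log2 ratios of −0.02, 0.15, 1.04 and 0.96 in pairs 1, 2, 4 and 5, and Dpy30, a core subunit of the MLL complexes, 0.15, −0.59, −1.03 and −0.83. Both were near 0 in pair 1 and away from 0 in pairs 4 and 5, and Dpy30 was also below 0 in pair 2. The knockout was in Cy3 in pairs 1 and 2 and in Cy5 in pairs 4 and 5. The part of the dye in this split was not tested. Of 14 genes of DNA methylation, 1 had an unadjusted limma p under 0.05, a share near the 8.06% of all genes. That was Tet2, an enzyme that oxidises methylcytosine, with 0.33, 0.08, 0.70 and 0.71 (0.46 ± 0.30, SD, n = 4, limma adjusted p = 0.597). Mbd3, a NuRD subunit, had −0.75, −0.07, −0.13 and −0.40.

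Of 15 cofactors and upstream factors, 0 had an unadjusted limma p under 0.05. The homeodomain cofactors Meis2 and Pknox1 had means of 0.15 ± 0.40 and 0.29 ± 0.70 (SD, n = 4). Of 13 genes in or beside the clusters, 2 were under 0.05, beside 8.06% of all genes. Hibadh, a mitochondrial enzyme of valine breakdown, had −0.56, −0.42, −0.23 and −0.10, and Atp5g1, a subunit of ATP synthase, had −0.03, −0.79, −0.92 and −0.47. Each was below 0 in all 4 pairs, with a limma adjusted p of 0.597.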

How the data were processed

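Methylation was measured in 2 and expression in 4 knockout and wild-type pairs, with groups, pair numbers and dyes from the labels. The deposited scanner files hold spot intensity per channel. The processed intensity was background subtracted and dye scaled, per the file headers, which name Agilent Feature Extraction 10.5.1.1. The submitters' processing notes name 8.5.1.1. The log10 ratio that the authors deposited beside it served as an alternative. The authors also deposited hit tables with a ratio, knockout over wild type, for each array, and no source used here gives their normalisation.

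For methylation, log2 ratios of processed signals were set to a median of 0 over positioned probes, without loess. Probes not marked as outliers and well above background in 1 or both channels of each array were joined where starts lay up to 500 bp apart. Interval means were tested with limma 3.58.1 in R 4.3.3 (lmFit, eBayes, Benjamini-Hochberg at 0.05). With 2 arrays the error rests on 1 difference per interval and limma's prior. Expression signals had normexp (offset 50) and loess and were fitted in limma with a dye term, on probes above background on at least 2 arrays. The number of arrays limits the precision. Procedures were tested on simulated data. On simulated intervals with the spread of the main setting, limma on 2 arrays made no calls at changes as large as the Hox means, so 0 calls say little about them.

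Intervals were named by a rule. It takes all past the submitters' 1.6-fold rule, then per cluster the 2 highest and 2 lowest means among intervals with at least 2 probes and the same sign on both arrays, and the 2 with the largest difference between pairs among those with at least 2 probes. Of the Hox genes it takes 2 per cluster with the largest difference between pairs 1 and 4, and of each other list the 2 with the smallest p. Members, windows and lists were chosen with earlier results of these data known. The comparisons by channel, sample order, density and summed signal, and those inside the deposited intervals, were added after the data were seen. Alternatives were normexp, loess, the deposited log10 ratio, filters on dim probes, the joining distance and leaving out each array. Gene order came from RefSeq GRCm38.p6, and none of its coordinates are given.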

Additional observations from a re-analysis of the deposited data

How the results depend on the processing

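The median log2 ratio of intervals was below 0 in all 4 clusters under every alternative run, but its size rests on pair 1. From the pair 4 array alone to the pair 1 array alone it ran from −0.01 to −0.61 in HoxA, −0.15 to −0.57 in HoxB, −0.30 to −0.82 in HoxC and −0.14 to −0.72 in HoxD, and on pair 4 alone HoxA was not below the median of all intervals, −0.02. In expression, 0 Hox genes and 0 listed regulators were called in limma under every alternative. The main fit did not call the deleted Tlr2 either, so this does not show equal expression. The counts of Hox intervals were not stable. Past the submitters' rule, 4 of 72 intervals were lower, and this became 9 with normexp and 1 with loess. Joining changed the number of intervals too. Lower were 7 of 126 over 250 bp, 2 of 52 over 1000 bp and 14 of 300 for single probes. By the same rule 0 were higher, which became 2 of 126 at 250 bp and 4 of 300 for single probes. With 1 array left out the rule has to hold on 1 array only, which gave 11 to 35 lower and 1 to 3 higher. limma called 0 lower, and 4 with normexp.

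Over the whole array the rule gave 596 higher and 487 lower intervals, 667 and 1707 with no filter on dim probes, 167 and 459 when both channels had to be above background, 747 and 996 at 250 bp and 482 and 309 at 1000 bp. For single probes it gave 1015 higher and 1786 lower. limma called 0 over the array, and 159 higher and 28 lower with loess. The cause of these changes was not tested. Among named genes, the mean log2 ratio of Hoxd13 was −0.40 over 4 pairs and 1.05 without pair 1. That of Hoxd4 went from −0.07 to 0.51 without pair 2 and to 0.52 without pair 4, and that of Hoxb5 from −0.21 to 0.04 without pair 2 and to 0.46 without pair 4. With 1 pair left out, Hoxa13 ranged from 0.11 to 1.30, Hoxa10 from 0.06 to 0.92, Hoxb13 from −1.51 to −0.12, Meis2 from 0.0017 to 0.32 and Pknox1 from 0.11 to 0.63. The highest of Hoxa13, Hoxa10, Hoxb13 and Pknox1 came without pair 1 and the lowest without pair 4, and Meis2 had the opposite order.

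No paired analysis was possible because every ratio is already the difference within a pair, so the fits are paired as they stand and a further block has nothing to remove. Methylation and expression, which share pairs 1 and 4, were set side by side without a test. The dimmest probes limit what can be read at the HoxA hit and at single-probe intervals.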
